A study of Mus musculus with 21 samples.

Results

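Elastic fibre and microfibril genes were described here in cultured mouse fibroblasts with and without loss of Prrx1, a homeodomain transcription factor of mesenchymal cells. The 10 genes were taken by symbol from the deposited count tables, matched in capitals as ELN, FBN1, FBN2, FBLN5, FBLN7, LTBP1, LTBP2, MFAP2, MFAP5 and EMILIN1, and are written below as mouse symbols. They are 10 of the 24532 genes in the MEF table and of the 24455 genes in each of the other tables. The rule that takes them uses symbols alone, but the group was chosen with earlier results of these data known. Bulk RNA-seq covered 21 cultures in 7 groups of 3. The question of the comparisons was how each gene's RNA level differed between fibroblasts with disrupted Prrx1 and WT fibroblasts of the same type, and whether that difference was alike in the 3 types.

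WT MEF and Prrx1 mutant (KI) MEF came from embryos of embryonic day 10 to 13, and the mutant carried the Prrx1tm1Jfm allele, in which LacZ sits inside Prrx1. The labels give C57BL/6 as the strain of all MEF and wound-healing cultures, while the mutant stock has a 129S name and was, per the methods, backcrossed. Wound-healing fibroblasts were isolated from dorsal skin at day 10 after wounding. MMTV-CAF, cancer-associated fibroblasts, came from breast tumours of MMTV-PyMT mice of the FVB/NJ strain, in which a viral promoter drives the tumour oncogene in mammary epithelium. The sgPrrx1 cultures of each type carried Cas9 with a guide RNA against Prrx1, and a non-targeting guide (sgNS) is named as the WT control. The methods give an age range for the mice of the whole study and none for each group. All groups shared immortalization by the HPV oncogenes E6 and E7, and all were grown in DMEM with serum to near confluence. The labels do not say whether the 3 cultures of a group were separate isolates, so p-values measure only the spread between these cultures, which may be technical. For MMTV-CAF, type cannot be told apart from strain, nor from sex as the RNA shows it: Xist had 35246 to 59760 counts in MMTV-CAF and at most 11 in any other culture, and Ddx3y, Eif2s3y and Kdm5d had 0 counts in MMTV-CAF. Also, within a type the genotype cannot be told apart from the line that carries it.

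Elastic fibres give skin, vessels and lung their recoil. A core of cross-linked elastin is laid down on a scaffold of microfibrils, which are built from fibrillins and decorated with small glycoproteins, and fibulins bring elastin and its cross-linking enzymes onto that scaffold. Microfibrils also hold latent TGF-β through the LTBP family, so that the same fibres store a growth factor that activates myofibroblasts.

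The promoters shown are those of Fbln5 and Fbln7, the fibulins among the 10 genes. Both were called lower in all 4 comparisons with WT, where 22.8% to 41.9% of all genes were called lower. Fbn1 and Mfap2 were called lower in all 4 as well, and their windows held none of the 3 motifs searched. The call of Fbn1 in KI MEF was near the threshold (edgeR adjusted p = 0.0447) and was lost, among others, without KI replicate 1 (0.088). That of Mfap2 in wound-healing fibroblasts was lost with all 21 cultures in a single model (0.193). Fibulins outside the 10 genes did not all fall. Fbln2 was higher by 0.83 on the log2 scale in sgPrrx1 wound-healing fibroblasts, and Efemp1 by 0.95 in sgPrrx1 MEF. RefSeq starts were at hand for 7 of the 10 genes, and Eln, Fbn2 and Mfap5 had no entry. Each sequence is the 200 bases before a listed start in GRCm38.p6, 5′ to 3′ on the strand of the gene, with capitals marking TAATTA, the palindromic core that homeodomains bind. The windows lie at chr12:101819120-101819319 (minus strand, upstream start of Fbln5), chr12:101818485-101818684 (minus strand, second start of Fbln5, inside the gene) and chr2:128863732-128863931 (plus strand, Fbln7). The listed span of the Fbln7 gene begins at 128863865, within this last window, so the start used for Fbln7 also lies inside the gene.
Fbln5, upstream start: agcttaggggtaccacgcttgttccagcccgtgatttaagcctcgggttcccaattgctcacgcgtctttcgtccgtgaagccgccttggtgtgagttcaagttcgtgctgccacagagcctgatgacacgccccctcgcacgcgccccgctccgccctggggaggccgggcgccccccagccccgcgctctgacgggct
Fbln5, second start: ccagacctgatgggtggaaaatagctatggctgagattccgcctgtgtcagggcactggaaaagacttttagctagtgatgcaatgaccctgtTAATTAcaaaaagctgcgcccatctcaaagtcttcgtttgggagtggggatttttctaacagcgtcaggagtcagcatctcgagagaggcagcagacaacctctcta
Fbln7: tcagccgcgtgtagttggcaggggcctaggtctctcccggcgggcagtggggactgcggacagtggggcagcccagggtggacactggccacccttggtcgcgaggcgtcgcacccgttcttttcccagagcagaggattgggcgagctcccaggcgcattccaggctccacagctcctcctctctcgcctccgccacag
The letters TAATTA occurred in 1 of the 10 windows of the 7 genes, 107 bases before the second start of Fbln5. Over all 32851 windows of this length, 3.73% held it. CAGAC, read on both strands, stood in 35.5% of all windows and in 5 of the 10, including the second start of Fbln5 but neither window with a GC content of 66.5 or 68.0%. TGACTCA, read on both strands, was in 3.66% of all windows and in 0 of the 10. A match of letters is a description and not a binding site.

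Total counts per culture ranged from 69588655 to 134790440, and MMTV-CAF were the deepest. Prrx1 itself was lower in each altered group: its log2 fold change was −3.04 ± 0.14 (SE) in KI MEF and −0.60 ± 0.14 in sgPrrx1 MEF. It was −1.18 ± 0.03 with the guide in wound-healing fibroblasts, and −1.06 ± 0.02 with it in MMTV-CAF. A guide that cuts the gene need not remove its RNA, so this level does not measure the loss of protein. Lines of 1 type also differed in genes of the Y chromosome, which were looked at after their values had been seen. Kdm5d had 0 to 3 counts in KI MEF but 744 to 923 in WT MEF and 654 to 676 in sgPrrx1 MEF, while Eif2s3y was higher in KI MEF (735 to 1059 counts) than in WT MEF (133 to 178). Ddx3y had 164 to 183 counts in sgPrrx1 wound-healing fibroblasts against 1622 to 1923 in WT, and Kdm5d and Eif2s3y had 819 or more counts in each of these 6 cultures. The part of such line differences in the results below was not tested.

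Fibroblast identity was checked against 9 markers. Col1a1, Col1a2, Col3a1 and Vim each had a mean of 106 CPM or more in every group, where CPM are counts relative to library size, scaled by TMM over all 21 cultures, while Lum stayed under 1 CPM in every group but WT MMTV-CAF. The summed level of the 9 markers fell from between 12200 and 12470 CPM in WT MEF to 5595 to 6848 in KI MEF and 9589 to 11270 in sgPrrx1 MEF. It was 8230 to 8378 in WT and 3239 to 3255 CPM in sgPrrx1 wound-healing fibroblasts, and 31720 to 32310 and 15760 to 15960 CPM in MMTV-CAF. Collagens and Vim carry these sums. All 8 tested markers were called lower in KI MEF and all 9 in sgPrrx1 wound-healing fibroblasts, beside 30.5% and 39.3% of all genes. In sgPrrx1 MEF 7 of 8 tested were called lower and 1 higher (22.8% and 20.3% of all genes). In sgPrrx1 MMTV-CAF 7 of 9 were called lower and 2 higher (41.9% and 41.2%). These 2 were Pdgfra (923 to 957 CPM in WT, 1828 to 1840 in sgPrrx1) and Dcn (31.6 to 33.1 CPM and 580.1 to 597 CPM). The summed level of the 7 smooth muscle or pericyte markers was lower in each altered group too, most of all in MMTV-CAF, from 2711 to 2768 CPM in WT to 175 to 177.7 CPM in sgPrrx1. Single markers of this list did not all fall. Of 6 tested, 5 were called lower and 1 higher in KI MEF, and likewise in sgPrrx1 wound-healing fibroblasts. All 6 tested were called lower in sgPrrx1 MEF and all 7 in sgPrrx1 MMTV-CAF. The shares of all genes called lower are those given above. In each MEF group 3 of the 7 stayed under 1 CPM. Summed epithelial markers reached at most 13.6 CPM and immune markers at most 2.87 CPM. Among the endothelial markers Kdr set the sum in wound-healing fibroblasts (286.9 to 293 CPM in WT, 140 to 144.9 in sgPrrx1), with Pecam1 at 0 counts. The part of these shifts in the changes of the elastic fibre genes was not tested, and in bulk RNA fewer cells of a kind and less RNA per cell cannot be told apart.

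In WT cultures the make-up of the gene group differed by fibroblast type. Per kilobase of exon, Fbn1 (fibrillin-1, the main microfibril subunit after birth) led in MMTV-CAF with 202 ± 3.86 CPM per kb (SD, n = 3), followed by Fbln5 with 84.2 ± 0.904 and Emilin1 with 77.1 ± 1.07. WT MEF had Fbln5 (38.2 ± 3.82), Emilin1 (31.3 ± 2.54), Ltbp1 (30.0 ± 1.26) and Ltbp2 (27.6 ± 2.22) close together at the top. Wound-healing fibroblasts were led by Ltbp1 at 34.9 ± 0.106 CPM per kb, ahead of Fbln5 at 20.8 ± 0.230. Exon lengths came from another annotation (Gencode M1) than the unnamed one of the counts, so levels between genes are approximate.

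All 10 genes differed between the 3 types of WT cultures in edgeR's quasi-likelihood F test (Benjamini-Hochberg adjusted p at most 5.85e-07), beside 93.3% of all genes tested. Between wound-healing fibroblasts and MEF, 6 were lower and 4 higher in the former (80.3% of all genes called, 39.4% lower and 40.9% higher). In MMTV-CAF 4 were lower and 6 higher, both against MEF (79.2% of all genes, 38.6% lower and 40.6% higher) and against wound-healing fibroblasts (80.4%, 41.1% lower and 39.4% higher). WT MMTV-CAF had the highest level of Fbn1, Fbln5, Emilin1, Ltbp2, Mfap5 and Eln and the lowest of Ltbp1, Fbln7, Mfap2 and Fbn2. Fbn1 was 3.11 ± 0.06 higher on the log2 scale than in WT MEF, and Mfap5 6.67 ± 0.15 higher. Fbln7 peaked in WT wound-healing fibroblasts, 1.92 ± 0.08 above WT MEF. The differences of Fbn2 (0.46 ± 0.12) and Mfap2 (−0.64 ± 0.19) between wound-healing fibroblasts and MEF were less certain. With a replicate number left out of every group they ranged from 0.40 to 0.53 and from −0.72 to −0.51. Without replicate 1 or replicate 2 the edgeR adjusted p of Fbn2 rose from 0.0115 to 0.079 or 0.062. Without replicate 2 that of Mfap2 rose from 0.0103 to 0.0596 (0.0696 with all 21 cultures in a single model).

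**Figure D1:**
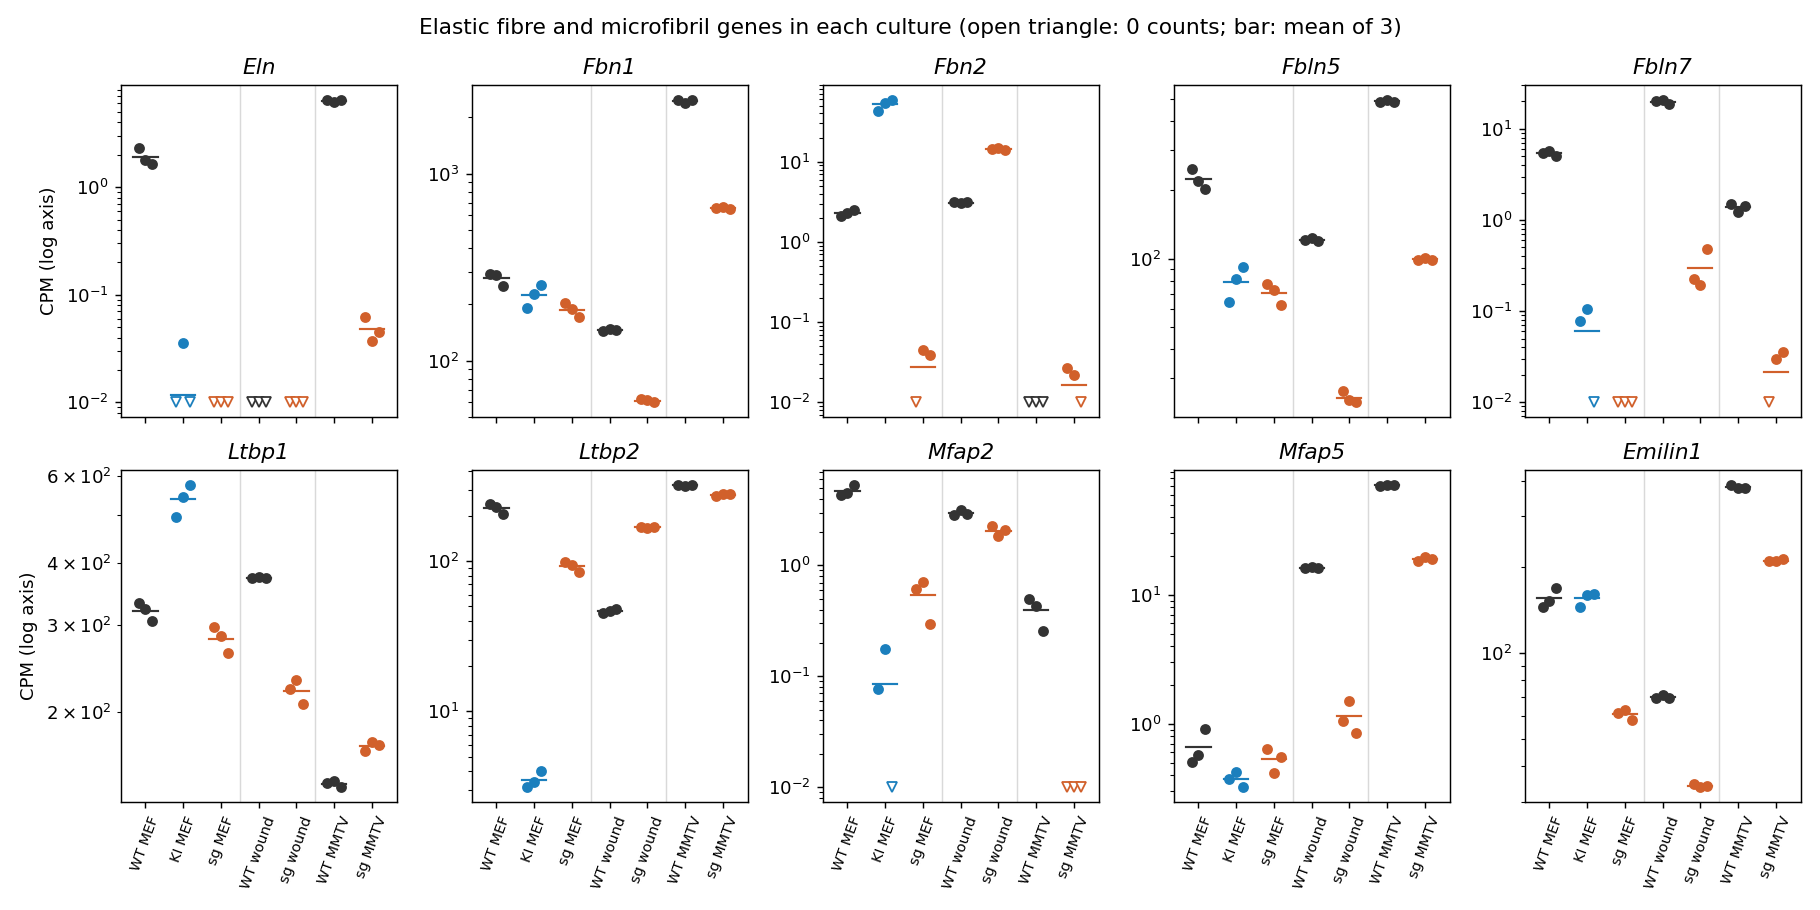
Level of each of the 10 genes in every culture, in CPM on a log axis with its own range per gene; points are cultures, bars the mean of 3, open triangles cultures with 0 counts. The plots show Eln, Fbln7 and Mfap2 falling to the floor in some altered groups, and Fbn2 high in KI MEF (43.2 to 58.8 CPM) but at 0 to 3 counts in sgPrrx1 MEF.

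Loss of Prrx1 was accompanied by lower RNA of most of the group in each comparison. In KI MEF 8 of 10 tested genes were called, 6 lower and 2 higher, where 59.9% of all genes tested were called (30.5% lower and 29.4% higher). In sgPrrx1 MEF, which share the 3 WT cultures with KI MEF, 8 of 10 were called and all 8 were lower (43.1% of all genes, 22.8% lower and 20.3% higher). In sgPrrx1 wound-healing fibroblasts all 9 tested genes were called, 7 lower and 2 higher (77.6% of all genes, 39.3% lower and 38.3% higher). In sgPrrx1 MMTV-CAF the 9 tested genes were called too, 8 lower and 1 higher (83.1% of all genes, 41.9% lower and 41.2% higher). The share called in either direction was thus near the background in both later comparisons, while their split by direction, 7 to 2 and 8 to 1, stood beside a nearly even split of all genes. Their median log2 fold change was −1.18 in KI MEF and −1.52 in sgPrrx1 MEF, against 0.01 and 0.00 over all genes tested. For the guide in wound-healing fibroblasts it was −1.04, and for MMTV-CAF −1.92, against 0.00 and −0.00. Setting genes with a group at 0 counts to their bound left these medians as they were. Calls are at an adjusted p under 0.05 in edgeR's quasi-likelihood test. Eln in wound-healing fibroblasts and Fbn2 in MMTV-CAF did not pass the filter on low counts, and an exact permutation of 3 against 3 cultures could not give a p below 0.1.

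**Figure D2:**
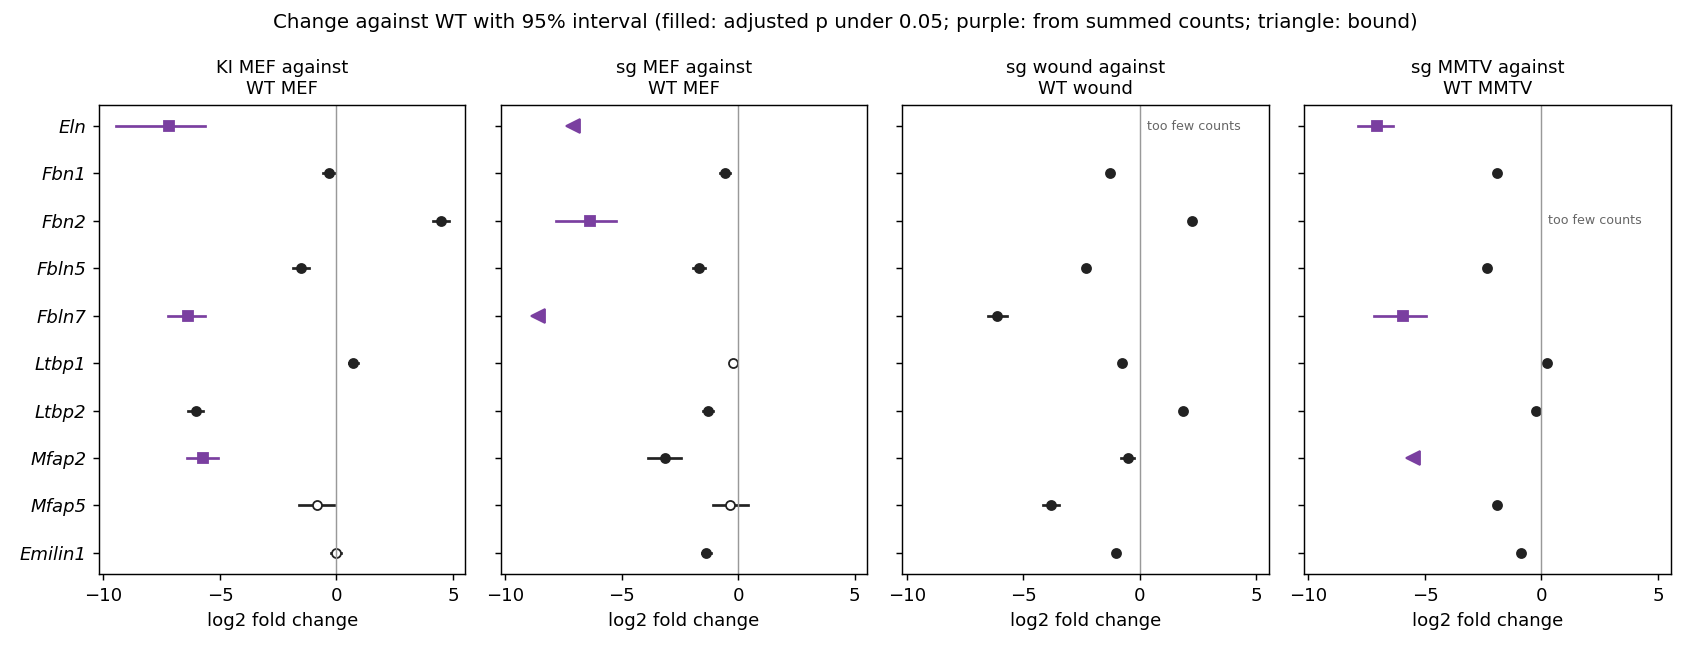
Log2 fold change of each gene against WT of the same type with its 95% interval; black points are edgeR fits (filled where the adjusted p was under 0.05), purple squares are ratios of summed counts with exact counting intervals, and purple triangles are bounds where the altered group had 0 counts. Most points lie left of 0; Fbn2 lies right of it in KI MEF (4.47) and wound-healing fibroblasts (2.23), and Ltbp2 in wound-healing fibroblasts (1.84).

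RNA of Eln, the gene of the rubber-like core protein elastin, was all but lost where WT cultures had it. Its mean level in WT was low, at 1.92 CPM in MEF and 6.34 CPM in MMTV-CAF. WT MEF had 160, 123 and 144 counts, KI MEF had 0, 3 and 0, and sgPrrx1 MEF had 0 in each culture. The groups stood far apart. In summed counts Eln was lower in KI MEF by a ratio of 146 (95% counting interval 49.5 to 708) and at least 134-fold lower in sgPrrx1 MEF, taking 3 counts over the group as the floor. MMTV-CAF had 685, 709 and 854 counts in WT and 7, 5 and 5 in sgPrrx1. That is a ratio of 134 (83.7 to 231), and the edgeR log2 fold change was −7.06 ± 0.14 (adjusted p = 2.21e-09). In wound-healing fibroblasts Eln had 0 counts in all 6 cultures, WT included, so a change was not detectable at this depth. These intervals cover counting error only.

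The fibrillins went separate ways. Fbn1 measured 2478, 2397 and 2479 CPM in WT MMTV-CAF and 654, 662 and 648 CPM in sgPrrx1 MMTV-CAF. Its log2 fold change was −1.92 ± 0.02 (adjusted p = 5.15e-11). In wound-healing fibroblasts Fbn1 went from 144, 148 and 146 CPM in WT to 62.4, 61.5 and 59.96 CPM in sgPrrx1, a log2 fold change of −1.26 ± 0.02 (adjusted p = 7.52e-10). Neither pair of groups overlapped.

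The change of Fbn1 was smaller in MEF. WT MEF had 289, 286 and 251 CPM, sgPrrx1 MEF 203, 188 and 171 CPM, and KI MEF 192, 228 and 253 CPM. The sgPrrx1 cultures lay below all WT cultures (log2 fold change −0.57 ± 0.09, edgeR adjusted p = 0.00283), while the highest KI culture overlapped the lowest WT culture. The fall in KI MEF (−0.32 ± 0.12, edgeR adjusted p = 0.0447) was near the threshold, and it ranged from −0.41 to −0.23 with a culture left out. The adjusted p was 0.088 without KI replicate 1, 0.108 without KI replicate 2, 0.126 without WT replicate 1 and 0.133 without WT replicate 2. It was 0.118 with the replicate block, 0.0655 with upper-quartile scaling and 0.0598 with no filter.

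Fbn2, the fibrillin of embryonic and early postnatal microfibrils, rose in 2 of the altered lines and fell in another. KI MEF had 43.2, 54.1 and 58.8 CPM against 2.12, 2.28 and 2.495 CPM in WT MEF (log2 fold change 4.47 ± 0.15, adjusted p = 2.22e-06 in edgeR). In sgPrrx1 MEF, measured against the same WT cultures, Fbn2 was at 0, 3 and 3 counts where WT had 146, 158 and 217, a ratio of 82.0 (counting interval 37.4 to 225). The direct comparison of sgPrrx1 with KI MEF gave 6 against 11938 summed counts. No culture of any of these MEF groups overlapped another group.

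Wound-healing fibroblasts carried Fbn2 at 3.13, 3.02 and 3.13 CPM in WT and at 14.5, 15.0 and 14.1 CPM in sgPrrx1. The log2 fold change was 2.23 ± 0.05 (edgeR adjusted p = 2.80e-09). In MMTV-CAF the gene was at 0 counts in the 3 WT cultures and at 3, 3 and 0 counts in the 3 sgPrrx1 cultures, too few for a fold. The change of Fbn2 by the guide differed between wound-healing fibroblasts and MEF by 8.49 ± 0.37 on the log2 scale, with few counts in sgPrrx1 MEF.

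As a share of the 2 fibrillins per kilobase of exon, Fbn2 made up 0.962 ± 0.155% in WT MEF, 21.1 ± 0.450% in KI MEF and 0.0178 ± 0.0154% in sgPrrx1 MEF. It made up 2.39 ± 0.0838% in WT and 21.5 ± 0.424% in sgPrrx1 wound-healing fibroblasts. In WT MMTV-CAF there were 0 counts of Fbn2 beside 868798 of Fbn1, which allows a share of counts of up to 0.000345%. Fbn1 thus stayed the more abundant fibrillin in every group. Such shares do not depend on the scaling of the libraries; they were added after the data had been seen.

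Fibulins connect elastin to microfibrils. Fbln5 (fibulin-5, needed for elastic fibre assembly) measured 246, 219 and 202 CPM in WT MEF, 64.3, 81.3 and 91.5 CPM in KI MEF and 77.0, 72.4 and 62.4 CPM in sgPrrx1 MEF. Both altered groups lay below WT and overlapped each other. The log2 fold change was −1.52 ± 0.14 in KI MEF (adjusted p = 0.000137) and −1.67 ± 0.11 in sgPrrx1 MEF (adjusted p = 6.80e-05), by edgeR. In wound-healing fibroblasts Fbln5 fell from 121, 123 and 120 CPM to 26.1, 23.8 and 23.4 CPM. MMTV-CAF had 489, 496 and 486 CPM in WT and 98.4, 101 and 98.5 CPM in sgPrrx1. Those changes were −2.31 ± 0.04 and −2.33 ± 0.02 on the log2 scale, and the difference between them was 0.04 (95% interval −0.19 to 0.27). Against MEF the fall was larger in wound-healing fibroblasts by 0.68 ± 0.11 and in MMTV-CAF by 0.64 ± 0.11.

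Fbln7 (fibulin-7, a matrix protein bound by cells) fell in every altered group. WT MEF had 377, 394 and 437 counts, KI MEF had 6, 9 and 0, and sgPrrx1 MEF had 0 in each. The ratio was 82.3 (49.7 to 148) for KI MEF, and Fbln7 was at least 380-fold lower in sgPrrx1 MEF. In wound-healing fibroblasts, where WT had the highest level of any group, counts went from 1846, 1677 and 1638 to 20, 18 and 36 (log2 fold change −6.11 ± 0.18, edgeR adjusted p = 7.97e-09). MMTV-CAF had 160, 142 and 188 counts in WT and 0, 4 and 4 in sgPrrx1, a ratio of 62.2 (31.3 to 145). In no comparison with WT did the groups overlap, while KI and sgPrrx1 MEF overlapped each other.

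Latent TGF-β binding proteins sit on microfibrils. Ltbp1, which holds latent TGF-β in the matrix, changed in both directions. It measured 332, 323 and 305 CPM in WT MEF, 495, 544 and 575 CPM in KI MEF and 296, 285 and 262 CPM in sgPrrx1 MEF. KI MEF lay above WT (0.73 ± 0.08 on the log2 scale, edgeR adjusted p = 0.000341) and sgPrrx1 MEF just below it without passing the test (−0.20 ± 0.07, adjusted p = 0.055). The latter was past the threshold without WT replicate 3 (adjusted p = 0.0377), with the replicate block (0.0164), DESeq2 (0.0371), upper-quartile scaling (0.0392), a minimum of 10 counts (0.0471) and all 21 cultures in a single model (0.00995).

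Ltbp1 fell in wound-healing fibroblasts, from 372, 374 and 372 CPM to 222, 232 and 207 CPM (−0.76 ± 0.04, edgeR adjusted p = 1.42e-07). It rose in MMTV-CAF, from 143, 145 and 141 CPM to 166, 174 and 171 CPM (0.23 ± 0.02, adjusted p = 1.87e-05). The groups did not overlap in either type. The difference of the 2 changes was 1.05 ± 0.07 on the log2 scale (adjusted p = 3.03e-09).

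Ltbp2, which does not bind latent TGF-β and interacts with fibrillin-1 and fibulin-5, also changed in both directions. WT MEF had 242, 230 and 206 CPM, KI MEF 3.13, 3.39 and 3.99 CPM and sgPrrx1 MEF 98.2, 94.2 and 84.7 CPM, with no overlap. The log2 fold change was −6.04 ± 0.13 in KI MEF (adjusted p = 1.17e-06) and −1.30 ± 0.09 in sgPrrx1 MEF (adjusted p = 8.52e-05), and the sgPrrx1 cultures lay 4.73 ± 0.12 above the KI cultures (adjusted p = 1.98e-06, all by edgeR). In wound-healing fibroblasts Ltbp2 rose from 45.3, 46.6 and 48.1 CPM to 168, 167 and 170 CPM, which is 1.84 ± 0.03 on the log2 scale. MMTV-CAF went from 323, 319 and 321 CPM to 272, 280 and 280 CPM, a small fall of −0.23 ± 0.02. The change by the guide was 3.11 ± 0.09 higher in wound-healing fibroblasts than in MEF and 2.02 ± 0.09 higher than in MMTV-CAF.

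The share of Ltbp2 among Ltbp1 and Ltbp2 per kilobase of exon was 47.9 ± 0.976% in WT MEF, 0.841 ± 0.0497% in KI MEF and 30.0 ± 0.321% in sgPrrx1 MEF. In wound-healing fibroblasts it was 14.04 ± 0.380% in WT and 49.9 ± 1.64% in sgPrrx1. MMTV-CAF kept the higher share of Ltbp2, 74.5 ± 0.352% in WT and 68.0 ± 0.153% in sgPrrx1.

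The microfibril-associated glycoproteins Mfap2 and Mfap5 bind fibrillins. Mfap2 had 295, 314 and 465 counts in WT MEF, 6, 15 and 0 in KI MEF and 41, 48 and 23 in sgPrrx1 MEF, with no overlap of either group with WT. The ratio was 52.3 (34.0 to 84.8) in KI MEF, and the log2 fold change in sgPrrx1 MEF was −3.16 ± 0.30 (edgeR adjusted p = 0.000335). Mfap2 was higher in sgPrrx1 than in KI MEF (adjusted p = 0.0285), but this was lost without sgPrrx1 replicate 1 (0.0758), sgPrrx1 replicate 2 (0.0963) or KI replicate 1 (0.073).

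In MMTV-CAF, where Mfap2 was low in WT (53, 49 and 34 counts), the sgPrrx1 cultures had 0, at least 46.1-fold lower. Wound-healing fibroblasts had 258, 256 and 249 counts in WT and 202, 172 and 156 in sgPrrx1. The groups did not overlap, and the log2 fold change was −0.53 ± 0.12 (edgeR adjusted p = 0.00294; 0.193 with all 21 cultures in a single model).

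Mfap5 was scarce in MEF and higher in WT cultures of the other types. WT MEF had 0.508, 0.576 and 0.908 CPM, KI MEF 0.374, 0.425 and 0.323 CPM and sgPrrx1 MEF 0.636, 0.414 and 0.555 CPM. The sgPrrx1 cultures overlapped WT (−0.33 ± 0.32, edgeR adjusted p = 0.428), and the KI cultures lay below WT without passing the test (−0.85 ± 0.31, adjusted p = 0.0509). The KI value was past the threshold without WT replicate 1 (0.0469), with RLE scaling (0.0489), with a minimum of 10 counts (0.0336) and with all 21 cultures in a single model (0.00458).

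Wound-healing fibroblasts lost most of their Mfap5, from 16.1, 16.3 and 16.2 CPM to 1.05, 1.51 and 0.852 CPM, a log2 fold change of −3.81 ± 0.14 (edgeR adjusted p = 3.73e-08). In MMTV-CAF it fell from 70.6, 71.0 and 71.5 CPM to 18.4, 19.5 and 19.0 CPM (−1.92 ± 0.03, adjusted p = 3.82e-10). The groups did not overlap in either type, and the fall was larger in wound-healing fibroblasts by 1.95 ± 0.21 (adjusted p = 4.71e-07).

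The balance of these 2 glycoproteins moved with their unequal changes. Mfap2 made up 95.5 ± 0.840% of the pair per kilobase of exon in WT MEF and 72.9 ± 11.1% in sgPrrx1 MEF, while in KI MEF, with 21 and 87 summed counts, it ranged from 0 to 55.3%. In wound-healing fibroblasts the share of Mfap2 went from 35.1 ± 1.22% to 84.2 ± 5.13%. In WT MMTV-CAF it was 1.61 ± 0.506%, and in sgPrrx1 MMTV-CAF 0 of 6837 counts, which allows up to 0.0439% of counts. Without division by exon length the share of Mfap2 was lower, at 15.4% in WT and 64.7% in sgPrrx1 wound-healing fibroblasts and at 0.551% in WT MMTV-CAF.

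**Figure D3:**
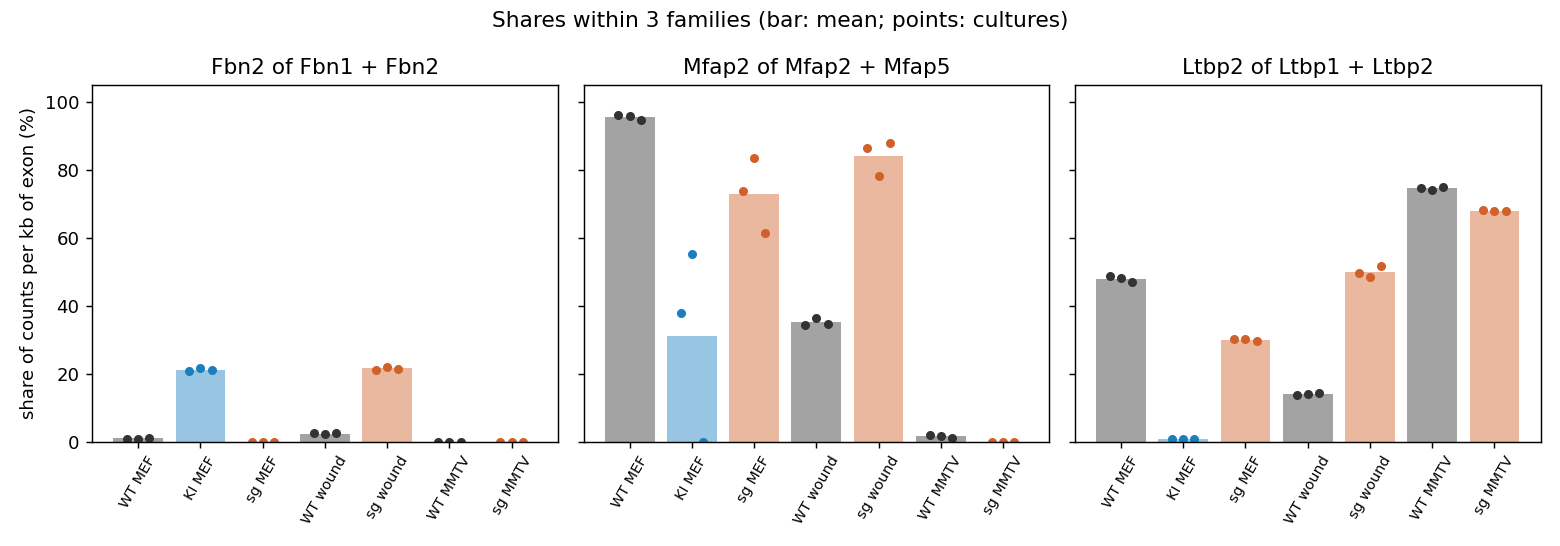
Share of the first-named gene within 3 pairs of related genes, in percent of the pair's counts per kilobase of exon; bars are the means of 3 cultures, points the cultures. Fbn2 stands near 21% of the fibrillins in KI MEF and sgPrrx1 wound-healing fibroblasts and at most at 2.46% in any culture of the other groups; Ltbp2 nearly disappears in KI MEF.

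Emilin1, which encodes a glycoprotein at the interface of elastin and microfibrils, measured 144, 152 and 169 CPM in WT MEF and 145, 160 and 160 CPM in KI MEF. These groups overlapped, with a log2 fold change of −0.02 (95% interval −0.22 to 0.18, edgeR adjusted p = 0.836). The sgPrrx1 MEF were lower, at 61.4, 63.0 and 57.9 CPM (−1.36 ± 0.08, adjusted p = 4.56e-05), and differed from KI MEF by −1.34 ± 0.07 (adjusted p = 1.54e-05). Emilin1 also fell in wound-healing fibroblasts, from 69.2, 71.3 and 69.3 CPM to 34.6, 33.8 and 34.0 CPM (−1.04 ± 0.03, adjusted p = 3.25e-09). MMTV-CAF went from 387, 378 and 377 CPM to 208, 209 and 213 CPM (−0.88 ± 0.02, adjusted p = 2.55e-09). None of these 3 pairs of groups overlapped.

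The 2 kinds of altered MEF differed from each other in 5 of 8 tested genes, beside 56.2% of all genes (28.4% lower and 27.8% higher in sgPrrx1). Fbn2, Ltbp1 and Emilin1 were lower in sgPrrx1 than in KI MEF, and Ltbp2 and Mfap2 were higher. Ltbp1 differed by −0.93 ± 0.08 (edgeR adjusted p = 0.000136). Fbn1, Fbln5 and Mfap5 did not pass the test, with 95% intervals of the log2 difference of −0.53 to 0.03, −0.50 to 0.19 and −0.12 to 1.15. For Fbn1 the adjusted p of 0.107 became 0.0227 without KI replicate 1 and 0.00846 with all 21 cultures in a single model. Prrx1 RNA itself was 2.44 ± 0.18 higher in sgPrrx1 than in KI MEF.

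The change in sgPrrx1 cultures was compared between the 3 fibroblast types by the interaction of type and guide. The F test called 9 of the 10 genes, beside 80.1% of all genes, so a difference between types was common throughout these data. By pairs of types, 6 of the 10 differed between MMTV-CAF and wound-healing fibroblasts, 3 lower and 3 higher (66.5% of all genes, 31.7% lower and 34.8% higher). Of these, Mfap2 had 0 counts in sgPrrx1 MMTV-CAF. Between wound-healing fibroblasts and MEF 9 differed, 4 lower and 5 higher (60.3%, 31.5% lower and 28.8% higher), among them Fbln7 with 0 counts in sgPrrx1 MEF. Between MMTV-CAF and MEF 10 differed, 4 lower and 6 higher (60.7%, 30.5% lower and 30.2% higher), where Eln, Fbn2, Fbln7 and Mfap2 had a group at 0 counts. Of these, Eln (adjusted p = 0.032) was lost without replicate 1, 2 or 3 (0.135, 0.0846 and 0.086), and Fbln7 (0.00578) without replicate 2 (0.0786). Ltbp2 and Fbn2 had the smallest adjusted p in the group (1.28e-13 and 2.74e-10 by edgeR). For Fbn1 the fall was larger in wound-healing fibroblasts than in MEF by 0.72 ± 0.08 on the log2 scale and larger still in MMTV-CAF, by 0.61 ± 0.08 over wound-healing fibroblasts. Emilin1 went the other way, and its fall was larger in MEF than in wound-healing fibroblasts by 0.29 ± 0.07 (adjusted p = 0.00163) and than in MMTV-CAF by 0.50 ± 0.07. The difference of Emilin1 between MMTV-CAF and wound-healing fibroblasts, 0.21 ± 0.07 (adjusted p = 0.0105), was lost without replicate 2 (0.145). Eln could not be compared with wound-healing fibroblasts, where it had 0 counts.

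Beyond the 10, a list of 30 other elastic fibre and microfibril genes was examined: fibulins, LTBPs, cross-linking oxidases, assembly factors, TGF-β isoforms and elastin-degrading proteases. In KI MEF 14 of 23 tested genes were lower and 2 higher, and in sgPrrx1 MEF 16 of 23 were lower and 1 higher. In wound-healing fibroblasts 17 of 24 were lower and 7 higher, and in MMTV-CAF 19 of 25 were lower and 4 higher. The shares of all genes called in these comparisons were 59.9%, 43.1%, 77.6% and 83.1%. Against them, the 23 of 25 called in MMTV-CAF lie near the background, while the 24 of 24 in wound-healing fibroblasts lie above it. In KI MEF 16 of 23 were called and in sgPrrx1 MEF 17 of 23. By direction, 30.5% of all genes were lower and 29.4% higher in KI MEF, and 22.8% and 20.3% in sgPrrx1 MEF. These shares were 39.3% and 38.3% in wound-healing fibroblasts, and 41.9% and 41.2% in MMTV-CAF. The median log2 fold changes of the list were −0.62, −0.56, −0.53 and −0.76, smaller than those of the 10 genes in each comparison.

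Cathepsin K (Ctsk), a protease that degrades elastin and collagen, fell in both altered MEF groups, from 3.64 to 4.76 CPM in WT to 0.118 to 0.147 CPM in KI and 0.0591 to 0.335 CPM in sgPrrx1. The ratios of summed counts were 32.5 (22.6 to 48.4) and 22.5 (16.4 to 31.7). In MMTV-CAF Ctsk fell from 22.1 to 22.8 CPM in WT to 0.310 to 0.479 CPM (−5.96 ± 0.11, edgeR adjusted p = 1.49e-09). Other proteases of the list rose there: Mmp9 by 3.30 ± 0.14 and Mmp2 by 2.11 ± 0.02 on the log2 scale. In KI MEF, by contrast, Mmp2 was lower by −2.04 ± 0.09. Mfap4, a microfibril-associated glycoprotein, had 324 summed counts in WT MMTV-CAF and 0 in sgPrrx1, at least 110-fold lower.

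Among the other named genes, Thsd4, a microfibril assembly factor that binds fibrillin-1, fell by 3.13 ± 0.22 on the log2 scale in sgPrrx1 MEF. Lox, the lysyl oxidase that cross-links elastin and collagen, fell by 2.84 ± 0.02 in wound-healing fibroblasts. Efemp1 (fibulin-3) fell by 4.18 ± 0.06 in wound-healing fibroblasts and was the only gene of the list to rise in sgPrrx1 MEF (0.95 ± 0.12). The TGF-β isoforms had no common direction: Tgfb2 rose by 2.10 ± 0.14 and Tgfb3 by 0.38 ± 0.08 in KI MEF, where Tgfb1 fell by 0.62. All 3 fell in sgPrrx1 MEF, Tgfb2 (−1.06 ± 0.12) and Tgfb3 (−0.52 ± 0.07) more clearly than Tgfb1. The fall of Tgfb1 there (−0.36 ± 0.12) was near the threshold (edgeR adjusted p = 0.0474). In wound-healing fibroblasts Tgfb1 rose by 0.99 ± 0.03, as did Ltbp4, another LTBP, by 1.24 ± 0.03, while Tgfb2 fell by 1.55 ± 0.06 and Tgfb3 by 0.18 ± 0.04. In MMTV-CAF Tgfb1 fell by 0.58 ± 0.02 and Tgfb3 by 1.15 ± 0.03, and Tgfb2 did not pass the test (0.04 ± 0.03, edgeR adjusted p = 0.274).

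**Figure D4:**
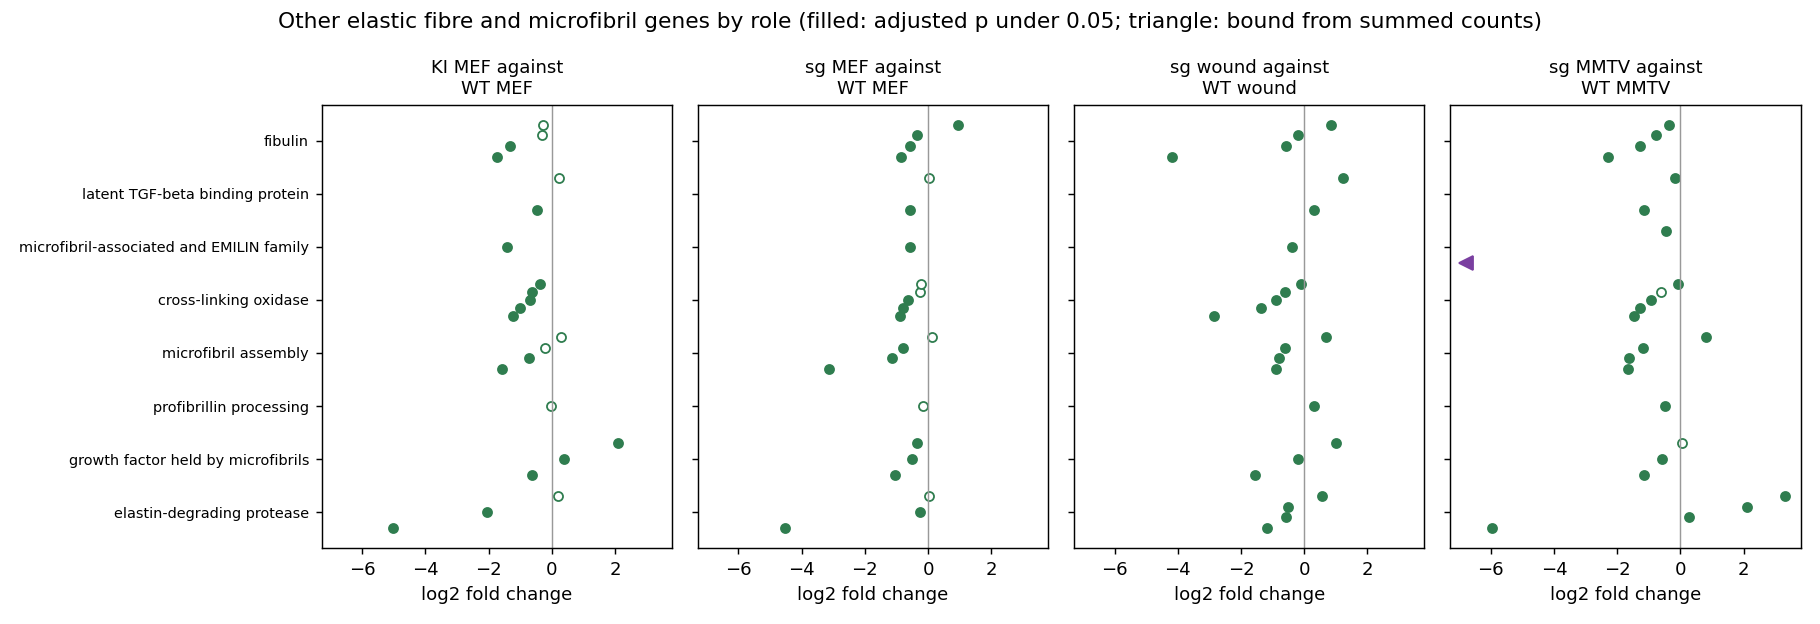
Log2 fold change against WT of the other elastic fibre and microfibril genes, grouped by role; points are genes, filled where the adjusted p was under 0.05, and the purple triangle is the bound for Mfap4. Cross-linking oxidases lie left of 0 in every comparison, and proteases spread from −5.96 (Ctsk) to 3.30 (Mmp9) in MMTV-CAF.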

How the data were processed

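Bulk RNA-seq of 21 mouse fibroblast cultures (7 groups of 3) was analysed. The authors trimmed reads with Trimmomatic, aligned them to mm10 with STAR and counted reads per gene with HTSeq. The deposited values are raw counts, whole numbers per gene in 1 table per fibroblast type. The annotation and the strand setting of the counting are not given in the sources used here, so reads of overlapping genes on opposite strands may not be separated. ComBat-seq is named in the methods after human samples, and its use on these counts is not stated. The columns of wound-healing fibroblasts were assigned to that type by elimination. No 2 replicates agreed within sampling noise (chi-square per gene at least 13.6).

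Genes were kept by filterByExpr, scaled by TMM and tested in R 4.3.3 with edgeR 4.0.16 (glmQLFit, glmQLFTest) in models of the cultures compared, and p-values were Benjamini-Hochberg adjusted over all genes tested, with a threshold of 0.05. Errors of log2 fold changes are approximate standard errors, and errors of levels are SDs (n = 3). The standard errors are the absolute log2 fold change divided by the square root of the quasi-likelihood F statistic. The 95% intervals of edgeR values were built from them, and both are unreliable where a group had 0 counts. Where a group had at most 60 summed counts, ratios of summed counts with exact 95% intervals or bounds at 3 counts were used. The 10 genes and the list of 30 were chosen with earlier results of these data known. All 10 are named, and of the 30 those called with the 2 strongest decreases and 2 strongest increases per comparison with WT. The other TGF-β isoforms and Fbln2 were added after their values were seen. Alternatives were DESeq2 1.42.0, RLE and upper-quartile scaling, no filter, at least 10 counts in every culture, a replicate block, all 21 cultures in 1 model, and each replicate left out. Steps were tested on simulated data. Plots were drawn with matplotlib 3.10.9 in Python 3.11.15. Promoters came from RefSeq on GRCm38.p6, and exon lengths from Gencode M1.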

Additional observations from a re-analysis of the deposited data

Results flagged for a closer look

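The change in sgPrrx1 cultures differed between MEF, wound-healing fibroblasts and MMTV-CAF for 9 of the 10 genes, by the F test of the interaction in edgeR (adjusted over all genes). The adjusted p was 1.28e-13 for Ltbp2, 2.74e-10 for Fbn2, 3.10e-09 for Fbn1 and 9.50e-09 for Ltbp1. It was 3.49e-08 for Mfap5, 2.13e-06 for Mfap2, 1.84e-05 for Emilin1, 3.72e-05 for Fbln5 and 0.00353 for Fbln7. Ltbp2 rose in wound-healing fibroblasts and fell in the other types, Fbn2 rose there and fell in MEF, and Ltbp1 fell there and rose in MMTV-CAF. The remaining called genes fell in every type where they were called and differed in the size of the fall. For Fbln7 and Mfap2 that size is uncertain, since Fbln7 had 0 counts in sgPrrx1 MEF and Mfap2 0 in sgPrrx1 MMTV-CAF. Since 80.1% of all genes were called by the same test, the count is close to the background. Each type had its own line, and MMTV-CAF differed from the other types in strain and, by Xist and 3 Y-linked genes, in sex, so type, line, strain and sex cannot be told apart.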

How the results depend on the processing

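Of 255 recomputed counts of calls, 252 stayed within 1.5 times the reported count. The number of all genes called in sgPrrx1 against WT MEF was 5764 and ranged from 3830 to 6340 with a culture left out, the lowest without WT replicate 2 and 3834 without sgPrrx1 replicate 2, while the number of the 10 genes called stayed between 8 and 9. With at least 10 counts in every culture, 3 of the 10 genes were called between sgPrrx1 and KI MEF instead of 5, since fewer genes were tested. Of 1169 recomputed values of single genes, 1129 kept their direction and side of the threshold, 22 lost their call, 14 gained one and 4 changed sign. The sign changed for Emilin1 in KI MEF, where the value was near 0 (9e-04 with all 21 cultures, 0.0201 without KI replicate 1 and 0.0402 without WT replicate 3, from −0.0674 to 0.0402 with a culture left out), and for the difference of Fbln7 between MMTV-CAF and wound-healing fibroblasts (0.26, and −0.38 to 0.6608 with a replicate left out, the lowest without replicate 2); none of the values with a changed sign passed the test. Same-numbered cultures did not deviate together (correlations from −0.223 to 0.13 over all comparisons, and over 0.1 in every pair of none), so the numbers were not taken as pairs. With the replicate block the calls among the 10 genes were 7 in KI MEF and 9 in each of the 3 comparisons with the guide. Of 84 recomputed family shares, 15 moved by over 1 SD, all of them shares not divided by exon length, an alternative chosen after seeing the data. Leaving out 1 of 3 cultures cannot move their mean by over 1 SD, so those recomputed shares could not show a move. Only the shares not divided by exon length could, and most of them did. No scaling moved the median of all genes by over 0.1. Eln, Fbln7 and Mfap2 in the altered groups with 0 to 21 summed counts are limited by depth.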
